A study of Drosophila melanogaster with 12 samples.

Results

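The Antennapedia complex (ANT-C) is the cluster of homeotic genes on chromosome arm 3R that holds lab, pb, Dfd, Scr and Antp. It was taken as a fixed stretch of 350 kb, 3R 2480001 to 2830000 in the dm3 assembly, on the maternal and on the paternal homolog, and its contacts inside the stretch and with the bithorax complex (BX-C, 3R 12480001 to 12810000, 330 kb) were counted. The stretch is 1 of 274 intervals of 350 kb tiled along 2L, 2R, 3L and 3R, and 35 of the 9659 windows of 10 kb on these arms. All 5 genes were found by name in the reference gene table, which belongs to another assembly than dm3. Values are therefore given by dm3 position and no value is assigned to a single gene.

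Hox genes encode homeodomain transcription factors that give body segments their identity, and in Drosophila they lie in these separate complexes. In ANT-C, lab, pb and Dfd act in the head, Scr in the labial and first thoracic segments and Antp in the thorax. The complex also holds zen and zen2, homeobox genes of the dorsal embryo, bcd, the anterior morphogen, Ama, which encodes an immunoglobulin-domain protein, and ftz, a pair-rule gene. In the reference table the order runs lab, pb, zen2 and zen, bcd, Ama, Dfd, Scr, ftz and Antp, with lab at the end of lower coordinates. BX-C holds Ubx, abd-A and Abd-B, which specify posterior thorax and abdomen. Both complexes are classical targets of Polycomb group repressors, and contacts between them over the intervening megabases have been described in Drosophila nuclei. Homologous chromosomes of flies are also paired in somatic cells, and at some Hox loci the pairing affects gene activity.

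The data were haplotype-resolved Hi-C of PnM cells, a clonal diploid male line made from a cross of 2 inbred strains, with a maternal (057) and a paternal (439) copy of each autosome. Hi-C ligates DNA ends that lie close together in the nucleus and counts the joined fragments as read pairs. A pair with both sides on the same homolog is called cis and a pair with one side on each homolog of the same arm is called thom (trans-homolog). The groups were untreated cells, cells mock-treated with water, and cells treated with 30 µg of dsRNA against Slmb or against TopII, with 2 replicates each and 8 libraries in all.

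Slmb is the substrate-recognition part of an SCF ubiquitin ligase that limits the chromosome-compacting complex condensin II, and TopII is the topoisomerase that passes one DNA duplex through another. Both are known to favour homolog pairing. Each knockdown was compared with the mock group, so the 2 comparisons share their control libraries. As the line is 1 clone, p-values measure only the spread between libraries of that clone.

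The untreated libraries held 37284329 and 38465767 pairs and the 6 others between 10190412 and 12077016. The values in mock and knockdown cells thus rest on far fewer pairs. The study accounts for higher maternal coverage of distal 3R by a partial maternal disomy, 2 maternal copies and no paternal one, in a fraction of the cells. In these libraries the ratio of maternal to paternal cis pairs per window stepped up about 3.25 Mb along the arm. In untreated cells its median was 1.05 and 1.04 before the step and 1.95 and 1.95 after it. ANT-C lies before the step and BX-C after it. Between replicates of a group, counts over 10 kb windows varied by 1.01 to 1.11 times the variance that sampling alone gives. On 3R the replicates of the mock and knockdown groups shared 55 to 69 identical pairs, and the libraries of different such groups 46 to 81, so each was counted as a library of its own.

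Inside ANT-C, contacts between homologs were nearly as frequent as contacts within them. Among pairs at least 1 kb apart, untreated replicate 1 held 5676 maternal cis, 5432 paternal cis and 9407 thom pairs, and untreated replicate 2 held 5715, 5409 and 9485. Their thom/cis ratios, the thom pairs over the cis pairs of both homologs, were 0.847 and 0.853 (0.850 ± 0.00410, SD, n = 2). The median of the 262 intervals with enough pairs was 0.763 and 0.770. ANT-C stood above 82.4% and 86.3% of the intervals and was the highest of the 75 on 3R in both untreated libraries. Most intervals of 3R lie beyond the step in copy number, where a pair between 2 maternal copies counts as cis, and the part of copy number in this rank was not tested.

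The neighbouring intervals had lower ratios. The 350 kb on the centromeric side gave 0.635 and 0.634 in the untreated libraries, and the 350 kb on the telomeric side gave 0.769 and 0.788. The same order, ANT-C above the telomeric side and that above the centromeric side, held in all 8 libraries. The narrowest gap to the telomeric side was that of mock replicate 1, with 0.743 against 0.707.

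The ratio rose with the distance between the contacting loci. In untreated cells it was 0.673 and 0.674 for pairs 1 to 5 kb apart, 0.786 and 0.805 at 5 to 20 kb, 0.886 and 0.900 at 20 to 80 kb, and 0.977 and 0.936 at 80 to 350 kb. The medians of all intervals rose likewise, from 0.585 and 0.589 in the first range to 0.893 and 0.897 in the last. ANT-C was above the median in each range and exceeded between 72.1% and 90.0% of the intervals.

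Misassigned homologs would add false thom pairs most visibly among unligated fragments, which give inward-facing pairs under 1 kb. In ANT-C only 0.311% to 0.772% of the excess of inward-facing pairs was thom in the 8 libraries.

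**Figure D1:**
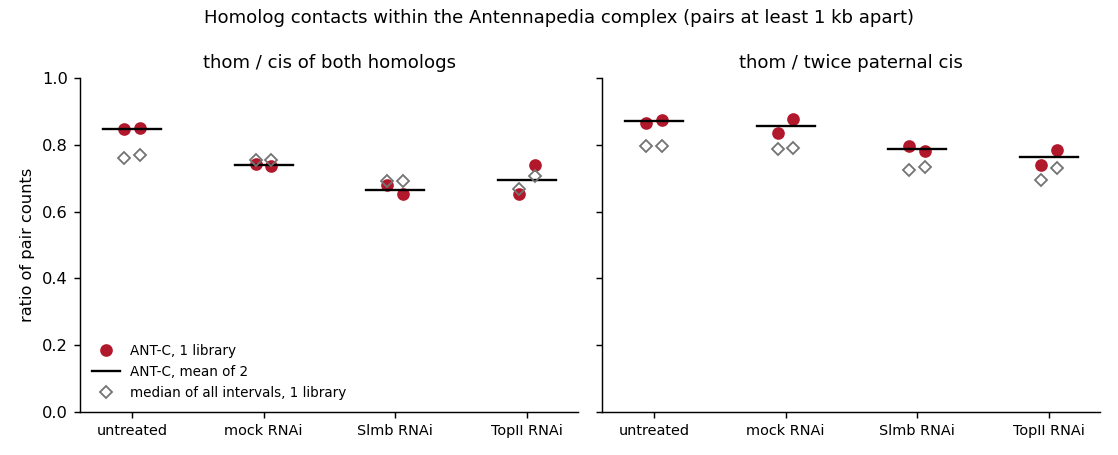
Ratio of thom to cis pairs inside ANT-C in each of the 8 libraries (red points, with the mean of each pair as a line) beside the median of 262 intervals of 350 kb in the same library (open diamonds), with the cis pairs of both homologs (left) or 2 times the paternal cis pairs (right) as the denominator. On the left the untreated points (0.847 and 0.853) lie above their medians and the mock points (0.743 and 0.739) just below theirs, while on the right the points of all 8 libraries lie above their medians.

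Thom/cis in ANT-C was lower in mock than in untreated cells when the cis pairs of both homologs were the denominator. The mock libraries gave 0.743 and 0.739 (0.741 ± 0.00315, SD, n = 2), below both untreated values. How many other intervals were separated in this way was not counted. In a limma fit over all 262 intervals the log2 difference was -0.20 (SE 0.0245, adjusted p = 5.79e-05), a ratio 0.872 times that of untreated cells. In this comparison 38.5% of all intervals passed the threshold, 89 lower and 12 higher, and the median difference was -0.04. ANT-C was the 10th lowest. With all 8 libraries in the fit, the call was lost (adjusted p = 0.0952) and 2 intervals passed in place of 101. The exact two-sided permutation test over libraries gave p = 0.33, the smallest that 2 against 2 allows.

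The balance of the homologs moved together with this change. Maternal over paternal cis pairs in ANT-C were 1.04 and 1.06 in untreated cells, 1.25 and 1.38 in mock, 1.34 and 1.40 in Slmb RNAi and 1.27 and 1.13 in TopII RNAi. The medians of the whole segment of 3R before the step shifted in the same way, to 1.25 and 1.38 in mock cells. A denominator without the maternal cis pairs, 2 times the paternal cis pairs, gave 0.871 ± 0.00770 (SD, n = 2) in untreated and 0.857 ± 0.0310 in mock cells. With it the log2 difference was -0.02 and the call was lost (limma, adjusted p = 0.707). The call was also lost with pairs of mapping quality 30 or more (-0.06, adjusted p = 0.805). The part of homolog balance in the mock value was not tested beyond this.

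Slmb knockdown lowered thom/cis in ANT-C below mock, by about as much as in the genome as a whole. The Slmb libraries gave 0.681 and 0.652 (0.667 ± 0.0203, SD, n = 2), both below both mock values, which was likewise not counted over the other intervals. The log2 difference was -0.15 (SE 0.0356, limma, adjusted p = 0.00191), a ratio 0.900 times that of mock cells. Most other intervals moved with it: 81.2% of 261 passed the threshold, 212 lower and none higher, and the median difference was -0.13. With 2 times the paternal cis pairs the groups gave 0.790 ± 0.0119 and 0.857 ± 0.0310 (SD, n = 2), and the difference kept its direction and passed the threshold in each of the 11 alternative settings tried. The exact permutation p was 0.33.

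TopII knockdown gave unequal replicates. Its libraries were at 0.652 and 0.740 (0.696 ± 0.0616, SD, n = 2), the first below both mock values and the second between them. The log2 difference from mock was -0.09 (SE 0.0677, limma, adjusted p = 0.230) and the exact permutation p was 0.67. No interval passed the threshold in this comparison (0%), although 130 of 262 had an unadjusted p under 0.05, and the median difference was -0.14. Without TopII replicate 2 the difference in ANT-C was -0.18 (adjusted p = 0.00305), without TopII replicate 1 it was -0.0025 (adjusted p = 0.954), and with 2 times the paternal cis pairs it was -0.17 (adjusted p = 0.0144). Set directly against each other, Slmb and TopII knockdown differed by -0.06 (SE 0.0671, limma, adjusted p = 0.993), so the knockdowns were not distinguished in ANT-C.

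The intervals most like ANT-C across the 8 libraries, by the root mean square difference of their log2 ratios, were 2R 8780001 to 9130000 (0.0620), 3L 11930001 to 12280000 (0.0634) and 3L 8430001 to 8780000 (0.0711). In untreated cells these had lower ratios, 0.795 to 0.817, and in mock cells slightly higher ones, 0.739 to 0.783, than ANT-C.

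Pairing was uneven along the complex. Over windows of 10 kb, with pairs 1 to 40 kb apart, thom/cis in untreated cells had a median of 0.769 and ran from 0.529 to 1.01. The median of the 8823 windows counted on the 4 arms was 0.687, and 27 of the 35 windows of ANT-C were above it. The highest was 3R 2580001 to 2590000, with 277 cis and 281 thom pairs and ratios of 1.04 and 0.986 in the replicates. There, thom pairs were as numerous as cis pairs, and 97.9% of all windows were lower. The next were 2600001 to 2610000 (0.970, with 1.02 and 0.929 in the replicates) and 2590001 to 2600000 (0.929, with 1.01 and 0.854). The 3 highest windows by the pooled ratio were thus adjacent. In replicate 2 alone, 2780001 to 2790000 (0.957) and 2720001 to 2730000 (0.955) were higher than these next windows. They held few pairs, 109 and 46 in cis with the replicates pooled.

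The lowest windows lay at the high-coordinate end, the end of Antp in the reference order. They were 2810001 to 2820000 with 153 cis and 81 thom pairs (0.529, with 0.514 and 0.544 in the replicates), 2800001 to 2810000 (0.568, with 0.564 and 0.571) and 2770001 to 2780000 (0.600, with 0.524 and 0.684). Single windows were imprecise: the values of the replicates had a Spearman correlation of 0.453 across the 35 windows, which share libraries and depth and are not independent.

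**Figure D2:**
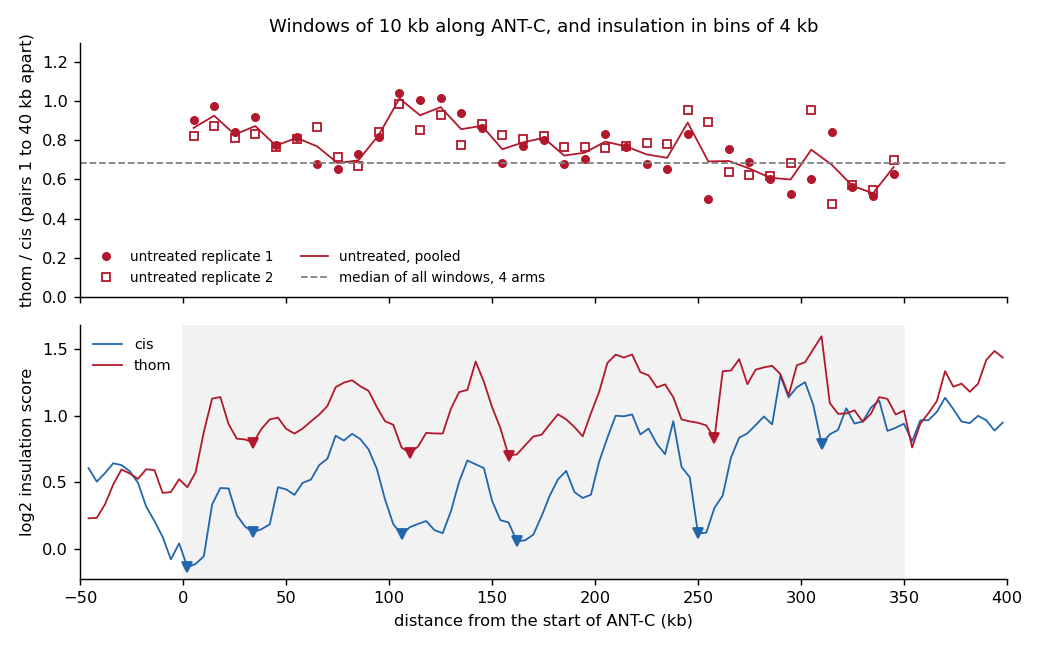
Above, thom/cis of 10 kb windows against the distance from the start of ANT-C in untreated replicate 1 (filled) and replicate 2 (open), with the pooled ratio as a line and the median of all windows (0.687) dashed. Below, the log2 insulation score of 4 kb bins in cis (blue) and thom (red) maps, where low values mean few contacts across a bin and triangles mark boundaries. The ratio peaks about 100 kb from the start and is lowest near the far end, and the boundaries near 34, 106, 160 and 250 kb appear in both maps. The last of these lies where pairs were few.

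The complex was divided into domains that cis and thom maps shared. The insulation score counts contacts across a bin up to 5 bins of 4 kb to each side, and a boundary is a minimum of its log2 value with a prominence over 0.3. The cis map of untreated cells had 6 boundaries, in the bins that start at 2480001, 2512001, 2584001, 2640001, 2728001 and 2788001. The thom map had 4, at 2512001, 2588001, 2636001 and 2736001, each within 2 bins of a cis boundary. The last lies where pairs were few: windows 2720001 to 2730000 and 2730001 to 2740000 held 46 and 39 cis and 41 and 27 thom pairs. The first of these windows had no corrected value, and the bin at 2736001 had no thom score in the other groups. The part of low coverage in this boundary was not tested. The deepest cis minimum was at the first bin of the interval, with a prominence of 1.78. Alone, the replicates gave 6 and 7 cis and 7 and 5 thom boundaries, so these numbers varied between maps. Each of the 4 thom boundaries lay within 2 bins of a thom boundary in both replicates. The cis boundary at 2584001 had none of replicate 2 within 2 bins, the nearest being 5 bins away.

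Between these cis boundaries, each cut moved to the nearest 10 kb, the stretches differed in thom/cis as the windows do. In untreated replicates 1 and 2 the ratio was 0.915 and 0.841 in the first 30 kb, 0.775 and 0.799 from 30 to 110 kb, 0.904 and 0.850 from 110 to 160 kb, and 0.744 and 0.782 from 160 to 250 kb. It was lower, at 0.628 and 0.667, from 250 to 310 kb and at 0.619 and 0.597 in the last 40 kb. The last 100 kb were below each earlier stretch in both replicates. They rest on fewer pairs, with 278 cis pairs per replicate in the last stretch against 1981 and 1904 in the second.

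In mock and knockdown cells the third stretch was above the first in 5 of 6 libraries. The first gave 0.694 and 0.675 in mock, 0.682 and 0.610 in Slmb RNAi, and 0.533 and 0.808 in TopII RNAi, the widest gap between replicates of a group among its values. The third, which follows the highest window, gave 0.719 and 0.733 in mock, 0.759 and 0.658 in Slmb RNAi, and 0.667 and 0.745 in TopII RNAi. In Slmb replicate 2 the last stretch, with 78 cis pairs, was at 0.705 and the highest of that library.

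No single window of ANT-C was called in any comparison at an adjusted p under 0.05 (limma over all windows with at least 10 pairs on average). In mock against untreated cells 0 of 34 tested windows and 0% of 8714 on all arms passed, and 5 and 787 had an unadjusted p under 0.05. Leaving out mock replicate 1 made it 5 windows of ANT-C among 376 on the 4 arms, and leaving out mock replicate 2 made it 1 among 707. For Slmb knockdown 0 of 29 passed against 0.134% of 8191 (11 windows, all lower), with 2 and 790 at an unadjusted p under 0.05. For TopII knockdown 0 of 32 passed against 0% of 8273, with 3 and 776 at an unadjusted p under 0.05. The median differences of the ANT-C windows were -0.17, -0.13 and -0.05 on the log2 scale, beside -0.05, -0.15 and -0.15 over all windows. In simulated data the 3 fits recovered 70.4%, 65.7% and 58.2% of windows changed by 1 on that scale. Changes as small as these medians were not simulated, so the lack of calls does not show that windows stayed the same.

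Within the complex, thom contacts at longer range were frequent for their distance. Observed pairs were divided by the number expected from the separation and either from the coverage of both bins or from a map corrected by iterative balancing. Both are given, because ANT-C has few well-mapped pairs and for ANT-C the first measure gave the higher sums. In untreated cells 7.60% and 7.90% of its cis pairs at least 1 kb apart had a mapping quality of 30 or more. For its thom pairs the shares were 8.19% and 7.63%. On the 4 arms they were 23.0% and 22.9% for cis and thom pairs together. For pairs at least 40 kb apart in untreated cells, thom was 1.58 times the expected number in the corrected map (1.57 and 1.58 in the replicates) and 2.18 times by coverage. Only 1 of the 73 other intervals of 3R was higher in the corrected map, where their median was 1.04. As most of them lie beyond the copy step, the part of copy number in this rank was not tested either. The value for cis was 1.10 corrected and 1.56 by coverage, at rank 29 of 74 in the corrected map. In the corrected map ANT-C thus ranked near the top of the arm in thom and nearer its middle in cis. By coverage its ranks among the 74 were closer together, 6 in thom and 15 in cis.

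Thom stayed near the top in the other groups, while the place of cis varied. Corrected thom values were 1.50 and 1.45 in the mock replicates, 1.69 and 1.59 in Slmb RNAi, and 1.50 and 1.58 in TopII RNAi, and each ranked between 2 and 4 of 74. The corresponding cis values were 1.14 and 1.12, 1.24 and 1.22, and 1.08 and 1.11. In cis ANT-C ranked 24 and 25 in mock, 14 and 17 in Slmb RNAi, and 29 and 27 in TopII RNAi. By coverage with replicates pooled, thom and cis ranked 7 and 10 in mock, 5 and 8 in Slmb RNAi, and 5 and 11 in TopII RNAi.

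**Figure D3:**
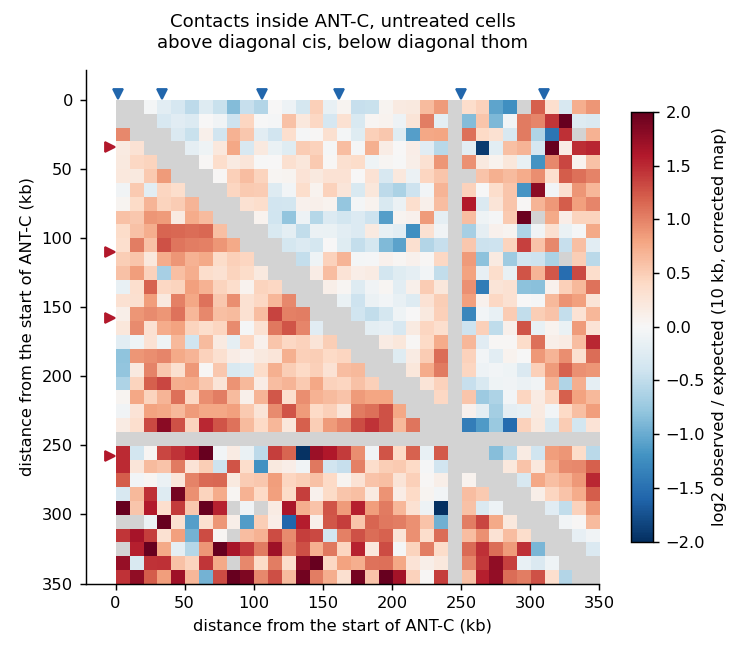
Observed over expected contacts inside ANT-C in pooled untreated cells, as log2 of the corrected map in 10 kb pixels, cis above and thom below the diagonal, with both axes in kb from the start of ANT-C. Triangles mark cis (top) and thom (left) boundaries, and grey pixels are near the diagonal, masked or without pairs. The thom side is mostly above 0 (1.58 times the expected number in sum) and the cis side is near 0 (1.10 times).

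The strongest pixels involved the far end of the complex. Of 496 pixels at least 40 kb apart, 284 had at least 20 pairs, and the highest by coverage joined the bin at 2750001 with that at 2820001: 52 cis and 40 thom pairs, 5.87 times the expected number (6.45 and 5.33 in the replicates) and 3.07 times in the corrected map. The bin at 2820001 also took part in the next 3. These joined it with 2650001 (38 pairs, 5.34 and corrected 3.22), 2740001 (51 pairs, 4.93 and corrected 2.54) and 2670001 (41 pairs, 4.92 and corrected 2.99). The fifth joined 2750001 with 2810001 (118 pairs, 4.71 and corrected 2.45).

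Each of these pixels was enriched in thom as well as in cis. The corrected thom values of the 5 ran from 2.93 to 4.67 and the cis values from 1.83 to 2.85. In the first pixel all 4 arrangements of homologs were over 5 times the expected number by coverage, from 5.51 for paternal cis to 7.94 for paternal 2750001 with maternal 2820001. The first pixel held 36 pairs in mock cells (7.88 by coverage and corrected 3.61), 18 in Slmb RNAi (5.06 and corrected 2.21) and 20 in TopII RNAi (4.20 and corrected 1.82). Other pixels gave other orders, on few pairs: 2670001 with 2820001 held 4 pairs in Slmb RNAi (1.84 and corrected 0.973), and 2740001 with 2820001 held 16 (7.49 and corrected 3.32). Across 253 pixels with values in both corrected maps, cis and thom had a Spearman correlation of 0.595. The pixels share bins and libraries and the figure is a description.

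ANT-C and BX-C met more often than loci 10 Mb apart on 3R usually do, within and between homologs. Untreated replicate 1 held 251 maternal cis and 135 paternal cis pairs between the complexes, 146 pairs of maternal ANT-C with paternal BX-C and 235 of paternal ANT-C with maternal BX-C. Replicate 2 held 244, 153, 128 and 259. In the corrected map cis was 1.56 ± 0.0194 and thom 2.16 ± 0.0772 times the expected number (SD, n = 2), and by coverage 1.71 ± 0.0153 and 2.30 ± 0.0766.

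Matched window pairs, the same sizes and 10 Mb apart, were taken every 50 kb along 3R. Neighbours therefore overlap, and the ranks among them are not ranks among separate loci. In the corrected map of pooled untreated cells none of 296 reached ANT-C with BX-C: their median was 0.990 and their highest 1.41 in cis, and 0.996 and 2.01 in thom. By coverage ANT-C with BX-C ranked 4 in cis and 1 in thom. The highest thom value among the matched pairs came from the short stretch before the copy step, and 16 of the matched pairs lay across the step as ANT-C and BX-C do. Against the median of that kind by coverage, cis was 1.50 and thom 1.47 times higher. In the corrected map those 16 had a median of 0.770 in cis and 1.10 in thom.

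**Figure D4:**
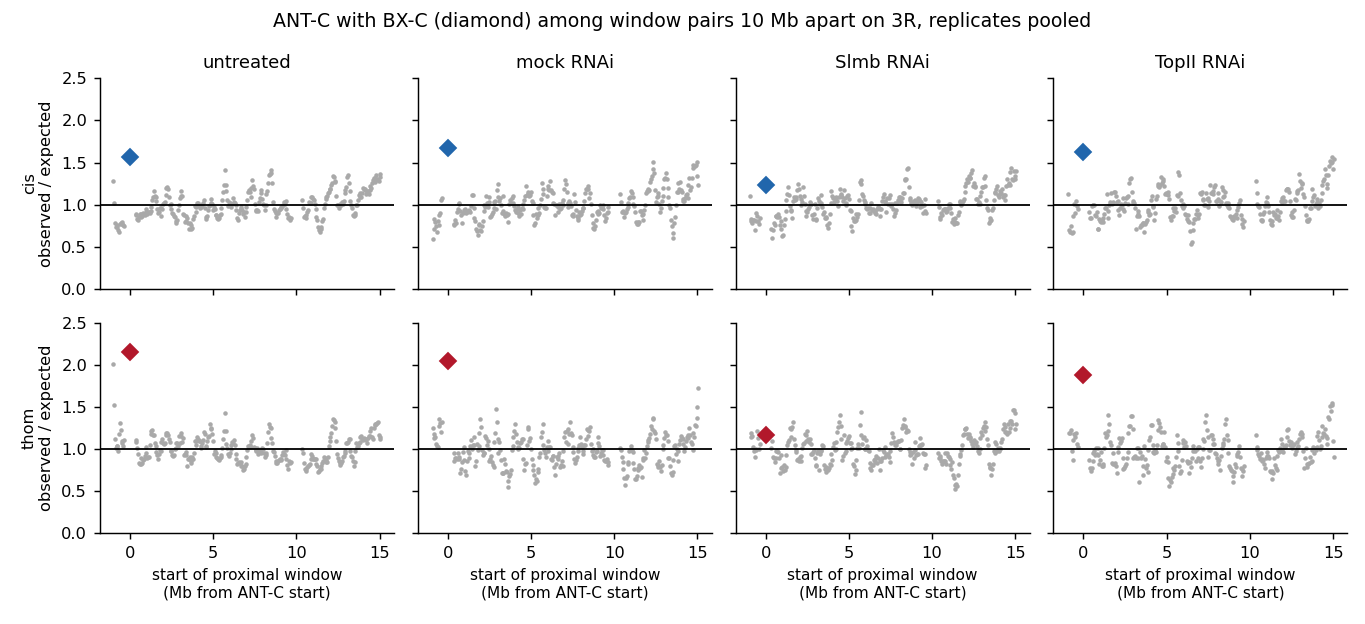
Observed over expected contacts of window pairs 10 Mb apart on 3R in the corrected map, replicates pooled, against the start of the window nearer the centromere in Mb from the start of ANT-C, for cis (top) and thom (bottom) in the 4 groups. Grey points are matched window pairs and the diamond is ANT-C with BX-C, which is above all grey points in untreated, mock and TopII RNAi cells (thom 2.16, 2.05 and 1.88) and among them in Slmb RNAi cells (1.17).

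Thom pairs made up 49.7% of the pairs between the complexes in untreated replicate 1 (95% Wilson interval 46.1 to 53.2) and 49.4% in replicate 2 (45.9 to 52.9). The thom/cis ratios were 0.987 and 0.975. Matched window pairs had medians of 0.659 and 0.670, and those across the copy step 1.03 and 1.00, so the ratio between the complexes was not unusual for its place on the arm.

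The arrangements of homologs were unequal in number. Paternal ANT-C with maternal BX-C was 1.61 and 2.02 times as frequent as the reverse in the untreated replicates, 2.04 and 1.57 in mock, 1.39 and 2.38 in Slmb RNAi and 2.28 and 1.33 in TopII RNAi. Matched pairs across the copy step had a median of 1.74 in pooled untreated cells and the others 1.07. BX-C itself had 2.08 and 2.11 maternal per paternal cis pair in untreated cells. Relative to the expected number in the corrected map, maternal ANT-C with paternal BX-C was 1.90 ± 0.256 and the reverse 2.34 ± 0.0439 (SD, n = 2), so both arrangements were raised and their spreads nearly met. Maternal cis was 1.64 ± 0.0999 and paternal cis 1.44 ± 0.0997.

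The contact was spread over both complexes. Of the 21 bins of 10 kb in ANT-C with at least 20 pairs expected with BX-C, 20 were over 1 in the corrected map. The highest were at 2760001 (38 cis and 60 thom pairs, 2.80), 2680001 (2.44) and 2700001 (2.18), and the lowest was the first bin of the complex, at 2480001 (0.772, with 15 cis and 8 thom pairs). By coverage and without that minimum the highest were 2820001 (3.94), 2770001 (3.66) and 2800001 (3.65), each with 42 pairs or fewer.

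In BX-C all 21 such bins were over 1, between 1.45 and 2.27 in the corrected map. The highest were at 12640001 (43 cis and 35 thom pairs, 2.27), 12730001 (2.10) and 12670001 (2.09), and by coverage without the minimum 12520001 (2.61), 12780001 (2.46) and 12640001 (2.42). At the level of single pixels the data were sparse. The 1155 pixels of 10 kb between the complexes held 1551 pairs with a median of 1, and the fullest, 2760001 with 12670001, held 11. No finer contact point was resolved at this depth.

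In mock cells the contact again stood above that of other loci at its distance. The mock replicates held 63 and 74 maternal cis, 43 and 30 paternal cis and 76 and 90 thom pairs between the complexes. Their corrected values were 1.77 and 1.56 in cis and 2.00 and 2.08 in thom, with group means of 1.67 ± 0.148 and 2.04 ± 0.0593 (SD, n = 2). Pooled, both were above each of the 294 matched window pairs. Alone, mock replicate 1 ranked 1 and mock replicate 2 ranked 3 in cis, and both ranked 1 in thom. The thom values lay just below those of untreated cells, 2.21 and 2.10, and 1 cis value was above both untreated ones and the other between them. By coverage the mock means were 1.96 ± 0.168 in cis and 2.34 ± 0.0756 in thom, above the untreated 1.71 and 2.30, so the order of mock and untreated thom turned with the measure.

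As a share of all contacts 1 to 20 Mb apart, thom fell. Thom pairs between the complexes were 194 and 187 per 1000000 thom pairs of that range in untreated and 134 and 144 in mock cells, a log2 difference of -0.45 (SE 0.0904, limma, adjusted p = 0.0367). Of 148 window pairs tiled along the arms, 4.73% passed, and the median difference was -0.24. The call was lost without either untreated replicate (adjusted p = 0.410 and 0.406). For cis the shares were 169 and 164 against 149 and 134, a difference of -0.23 (SE 0.116, adjusted p = 0.144), where 24.5% of 147 passed and the median was -0.28.

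In Slmb knockdown cells the contact was nearer that of other loci at its distance than in the other groups. The Slmb replicates held 67 and 57 maternal cis, 33 and 33 paternal cis and 55 and 54 thom pairs between the complexes. Corrected values were 1.22 and 1.26 in cis (1.24 ± 0.0333, SD, n = 2) and 1.12 and 1.23 in thom (1.18 ± 0.0825). By coverage the means were 1.45 ± 0.0240 and 1.34 ± 0.0877. In the corrected map all 4 values lay below each value of the same kind in the untreated and mock groups. Pooled, the cis value ranked 31 and the thom value 54 from the top among the matched window pairs, whose medians were 1.01 and 0.999. Among pairs across the copy step, corrected cis was above all 15 (median 0.807, highest 1.10). Corrected thom ranked 3 beside 14 with a median of 1.04. By coverage cis ranked 2 beside 14 such pairs and thom 8 beside 9.

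For thom the difference from mock was the lowest among the window pairs tested, and it narrowly missed the threshold. Thom pairs between the complexes were 77.0 and 87.3 per 1000000 against 134 and 144 in mock, 0.592 times as many, a log2 difference of -0.76 (SE 0.142, limma, adjusted p = 0.0537). None of 146 window pairs passed (0%), 22 had an unadjusted p under 0.05, and the median difference was +0.07. In 7 of 8 alternative settings ANT-C with BX-C passed, with adjusted p from 0.000605 to 0.239. The setting that did not was the omission of Slmb replicate 1. Scaled by all thom pairs of the library, not those 1 to 20 Mb apart, the difference was -0.48 (limma, adjusted p = 0.0283) with a median of +0.34 over the window pairs, 38 of which rose and 1 of which fell. Relative to the median, which this choice of scaling cannot alter, ANT-C with BX-C was at -0.83. The Slmb libraries held 714528 and 618434 thom pairs 1 to 20 Mb apart, among 1816437 and 1636212 thom pairs in all. The mock libraries held 568676 and 623948, among 1758103 and 1978967. The share of that range was higher in both Slmb libraries than in both mock libraries, and the cause was not tested.

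The cis contact showed a smaller difference. It was 106 and 111 per 1000000 in Slmb RNAi and 149 and 134 in mock cells, a log2 difference of -0.38 (SE 0.157, limma, adjusted p = 0.158). This was the second lowest of 147 window pairs, of which 2.04% passed, all higher, and the median difference was +0.11. Scaled by all cis pairs of the library it was -0.06 (adjusted p = 0.718) with a median of +0.43 and 58 higher calls, and relative to the median it was -0.49.

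In TopII knockdown cells the contact was also high for its distance. The replicates held 56 and 71 maternal cis, 27 and 31 paternal cis and 59 and 70 thom pairs, and corrected values were 1.53 and 1.73 in cis (1.63 ± 0.140, SD, n = 2) and 1.87 and 1.90 in thom (1.89 ± 0.0155). By coverage the means were 1.96 ± 0.101 and 2.19 ± 0.0385. Pooled, both corrected values were above each matched window pair, 294 in cis and 293 in thom. Alone, replicate 1 ranked 7 and replicate 2 ranked 1 in cis, and both ranked 1 in thom. Thom pairs between the complexes were 113 and 118 per 1000000, a log2 difference from mock of -0.26 (SE 0.164, limma, adjusted p = 0.615), where 0.685% of 146 window pairs passed and the median was -0.17. In cis they were 119 and 132 per 1000000, a difference of -0.17 (SE 0.161, adjusted p = 0.659), where 2.72% of 147 passed and the median was -0.15.

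The knockdowns were also compared with each other, a comparison added after seeing the data. Slmb RNAi had fewer thom pairs between the complexes than TopII RNAi, by -0.49 on the log2 scale (SE 0.195, limma, adjusted p = 0.0727), the lowest value of 146 window pairs with a median of +0.23. The cis difference was -0.20 (SE 0.163, adjusted p = 0.441). In both measures the libraries did not overlap, and neither difference passed the threshold. Of all window pairs tested, 14 of 146 passed in thom and 4 of 147 in cis, all higher in Slmb RNAi. How many other window pairs had libraries without overlap was not counted.

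**Figure D5:**
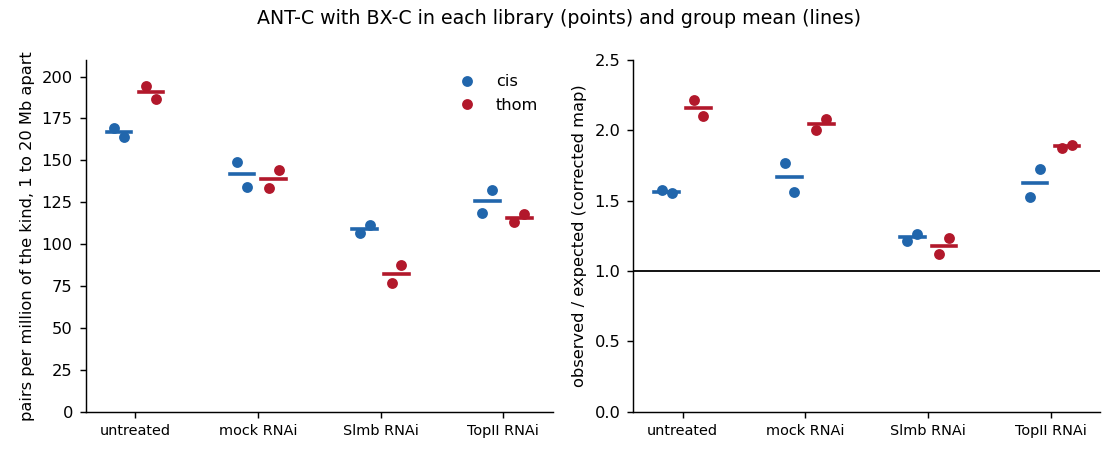
Contacts of ANT-C with BX-C in each library (points) and group means (lines), cis in blue and thom in red, as pairs per 1000000 pairs of the same kind 1 to 20 Mb apart (left) and as observed over expected in the corrected map (right, line at 1). The Slmb RNAi libraries are lowest in both panels, with thom at 77.0 and 87.3 per 1000000 and 1.12 and 1.23 times the expected number.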

How the data were processed

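Hi-C read pairs of 8 PnM libraries were analysed, and 4 RNA-seq samples were not analysed here. Per the labels and the methods of the study, the authors trimmed reads, aligned them with bwa (0.7.15-r1140) to a dm3-based genome of both homologs, called read pairs with pairsamtools (0.0.1-dev), and retained those that were unique to a homolog and not PCR duplicates. The deposited lists hold positions, strands and the mapping quality score of each side, as deposited by the authors straight from the aligner (median 21) and not normalized.

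Pairs at least 1 kb apart were counted in intervals of 350 kb, and pairs 1 to 40 kb apart in windows of 10 kb by their midpoint. Expected numbers came from separation and from coverage or iteratively corrected weights on 3R, with at least 20 pairs expected. Differences were fitted with limma 3.58.1 (lmFit, eBayes with trend) in R 4.3.3 on log2 ratios or log2 pairs per 1000000 with a pseudocount of 0.5, for features with a mean of at least 10 pairs, over all features of 2L, 2R, 3L and 3R, using the 2 groups compared and no block, with Benjamini-Hochberg adjustment at 0.05. These fits were tested on simulated data. Counting used Python 3.11.15, numpy 2.4.6, scipy 1.17.1 and pandas 2.3.3. Intervals and bounds cover counting error only.

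Members, lists and tests were chosen with earlier results of these data known. The named windows, pixels and bins followed a rule: the 3 highest and lowest windows, the 5 highest pixels at least 40 kb apart, the 3 highest bins of each complex and the 3 most similar intervals. The corrected map, 2 times the paternal cis pairs, coverage summed over homologs and the direct comparison of knockdowns were added after seeing the data. Other alternatives were the pseudocount, low-count filter, separation, window size, mapping quality, scaling, samples in the fit, a replicate block and leaving out each replicate.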

Additional observations from a re-analysis of the deposited data

How the results depend on the processing

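Of 166 alternatives over 18 results, 129 were taken as unchanged. Most of these kept the direction and the side of the threshold or moved by less than the spread between replicates. Counts of boundaries were allowed a wider range, in which 4 and 8 cis boundaries went with the main 6. The causes of the changes in the other alternatives were not tested, except where the setting itself changes what is counted.

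In untreated cells thom/cis of ANT-C was 0.876 with pairs at least 5 kb apart, 0.868 at mapping quality 30 or more, 1.43 when divided by expected numbers, 0.827 with 50 kb added on each side and 0.871 per 2 times paternal cis. ANT-C with BX-C in cis was 1.76 from raw counts over matched windows, 2.43 at mapping quality 30 or more, 1.50 against windows across the copy step, 1.64 with coverage summed over homologs and 1.56 in the corrected map. In thom these were 2.62, 4.02, 1.47, 2.39 and 2.16, with 2.10 for maternal ANT-C with paternal BX-C alone and 2.42 for the reverse. The top pixel inside ANT-C was 3.07 in the corrected map and 5.33 to 6.45 in single replicates, and thom boundaries numbered 5 to 7 in single replicates.

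For mock against untreated thom/cis the log2 difference was -0.064 at mapping quality 30 or more, -0.20 with all 8 libraries in the fit (limma, adjusted p = 0.0952) and -0.024 per 2 times paternal cis. With a replicate left out, the lone library of a group is assumed to vary like those of the other group. Windows of ANT-C called ranged from 0 to 5 then. ANT-C with BX-C in thom fell by 0.68 at mapping quality 30 or more (adjusted p = 0.315), and leaving out a replicate gave -0.50 to -0.39. For Slmb against mock this contact differed by -0.74 with a pseudocount of 2 (adjusted p = 0.0287), -0.48 per thom pair of the library, -0.76 with all 8 libraries (adjusted p = 0.00107) and -0.85 to -0.66 with a replicate left out. For TopII against mock thom/cis was -0.17 per 2 times paternal cis and -0.18 to -0.0025 with a replicate left out, and ANT-C with BX-C in cis turned from -0.17 to 0.0019 at mapping quality 30 or more (adjusted p = 0.996). At that quality ANT-C with BX-C in thom could not be fitted for Slmb and TopII, as it held fewer than 10 pairs on average.

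Replicate numbers are shared by the groups, and no source ties libraries of the same number to each other. Deviations of same-numbered libraries correlated at -0.0178 to 0.00746 over windows and at -0.52, -0.12 and 0.60 over intervals. With a replicate block the Slmb difference in ANT-C with BX-C thom was -0.76 with an adjusted p of 0.000605 (limma), and the block changed no other call on ANT-C. Over all features the block moved the calls from 0 to 24 windows for mock, from 11 to 0 windows for Slmb, from 0 to 60 intervals for TopII and from 0 to 3 window pairs for thom in Slmb. Over all alternatives the number of intervals called ranged from 2 to 126 for mock (101 in the report), 67 to 212 for Slmb (212) and 0 to 236 for TopII (0). Windows ranged from 0 to 707 for mock (0), 0 to 33 for Slmb (11) and 0 to 6 for TopII (0). Window pairs in cis ranged from 0 to 51 (36), 0 to 58 (3) and 0 to 7 (4), and in thom from 0 to 33 (7), 0 to 39 (0) and 0 to 7 (1). Per 2 times paternal cis, 6 intervals were called for mock and 165 for TopII. Depth limits the mock and knockdown groups, with 54 to 90 thom pairs between the complexes per library against 381 and 387 in untreated cells.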

Other observations

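BX-C was not the strongest partner of ANT-C on 3R among windows at least 1 Mb away. Over these 239 windows of 100 kb, the highest value in untreated cells belonged to 3R 3900001 to 4000000, with 455 cis and 422 thom pairs. It was 3.94 times the expected number by coverage (3.96 and 3.91 in the replicates) and 2.46 times in the corrected map. This window is the first past the 1 Mb limit, far nearer than BX-C. By coverage the windows after it gave 3.44, 2.46 and 1.54, so its rank depends on where the limit was set. The next window, 4000001 to 4100000, had 264 cis and 269 thom pairs and 2.03 in the corrected map. The 3 windows wholly inside BX-C followed, at 1.83, 1.82 and 1.82, and then 13400001 to 13500000 (1.58), 4100001 to 4200000 (1.47) and 17200001 to 17300000 (1.45). The windows at the edges of BX-C were lower, at 1.39 and 1.22 by coverage.

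The contact with 3900001 to 4000000 was over 1 in each bin of ANT-C that had a corrected value, from 1.39 to 4.89. Its highest bins were the neighbours from 2630001 to 2670000, with corrected values of 4.22, 4.62, 4.89 and 3.94, on either side of the shared boundary near 160 kb. The corrected thom values of the window were 3.02 and 2.91 in untreated, 1.71 and 2.54 in mock, 2.39 and 1.87 in Slmb RNAi and 2.25 and 2.69 in TopII RNAi, and in thom it ranked 1 or 2 among matched windows in each library. In cis the values were 2.15 and 2.10, 1.58 and 1.90, 1.46 and 1.34, and 1.42 and 1.86, with ranks of 1 and 2, 12 and 2, 30 and 41, and 32 and 1. No test of these differences was made, and the genes of these windows were not looked up, since no annotation of dm3 was used.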
